A study of Mus musculus with 17 samples.

Results

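The genes described here are the potassium channel genes of the mouse, taken as every protein-coding gene whose symbol starts with Kcn, except Kcne2 and Kcnj13, which mark the choroid plexus. The table of counts held 92 such genes among 55471, and all 92 had at least 1 count, as had 39260 genes in all. They were followed in 17 RNA-seq libraries of hippocampus from mice of 3 to 6 months, of strain C57BL/6 in the labels and C57BL/6J in the methods. CBP-ifKO mice carry floxed Crebbp, the gene of the acetyltransferase CBP, and the tamoxifen-inducible recombinase creERT2 under the Camk2a promoter, which is active in excitatory neurons of the forebrain, so that interneurons and glia keep CBP. Controls were, per the methods of the study, littermates without creERT2, although the labels name Camk2a_creERT2 for every sample, and all mice received tamoxifen. Sal mice were given saline and were not kindled. PTZ0 mice had been kindled with repeated doses of the convulsant pentylenetetrazole (PTZ) and were given saline on the last day, and PTZ45 mice had been kindled and were given 45 mg/kg PTZ. The hippocampus was dissected 45 min after that injection. Each group had 3 libraries, except Control PTZ45 with 2.

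Potassium channels let potassium ions leave the neuron, with inward rectifiers passing them more easily inward, at potentials negative to the potassium equilibrium potential, than outward, and so set the resting potential, shape the action potential and limit repetitive firing. They are built from pore-forming subunits of several families and from auxiliary subunits that change their gating and their transport to the membrane. Loss of function of several of these channels is a known cause of epilepsy, and blockers of potassium channels are convulsant in animals. By symbol, the 92 genes were 40 voltage-gated alpha subunits, 11 auxiliary subunits of voltage-gated channels, 14 inward rectifiers (Kcnj), 14 tandem pore domain leak channels (K2P, symbol Kcnk), 12 genes of calcium- or sodium-activated channels and Kcnrg, a regulator of channel assembly.

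The libraries held 5831992 to 18735643 counts. The targeted gene Crebbp had 1824 to 2429 normalized counts in the 8 control libraries (median 2171) and 1061 to 1337 in the 9 CBP-ifKO libraries (median 1226), counted over the whole gene, with no overlap. Choroid plexus tissue set 5 libraries apart, with 10936 to 44795 normalized counts summed over its 8 markers against 447 to 1172 in the other 12. These were Control Sal replicate 2, Control PTZ0 replicate 2, CBP-ifKO Sal replicate 1, CBP-ifKO PTZ0 replicate 3 and CBP-ifKO PTZ45 replicate 2. Kcne2 reached 132 normalized counts in these control libraries and 258 in these CBP-ifKO libraries, and Kcnj13 reached 124 and 228, while the median over all libraries of a genotype was at most 6.67 for Kcne2 and 41.4 for Kcnj13. The names of the libraries give their sequencing lane. Control Sal and Control PTZ0 were in lane 3, Control PTZ45 and CBP-ifKO Sal in lane 4, and the other CBP-ifKO groups in lane 5, so that within each treatment the genotypes lay in different lanes and genotype and lane cannot be told apart there.

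Levels of different genes were compared as normalized counts per kb of exon, averaged over the 17 libraries. The highest were Kcnab2 with 831, the beta subunit of voltage-gated channels that also binds NADPH, Kcnj3 with 590.0, a G protein-gated inward rectifier (GIRK), and Kcnd2 with 570.0, the A-type channel of neuronal dendrites. Kcnip2 (361), a calcium-binding partner of the Kcnd channels, and Kcnma1 (343), the large-conductance calcium-activated (BK) channel, came next. Kcna1 and Kcnk1, both with 281, Kcna4 (257) and Kcna2 (256) were also among the 10 highest members, which together held 44.7% of the summed counts per kb of the 92 genes. Kcnrg had 16.8. At the other end, 21 members had a mean under 20 normalized counts, 13 of them under 5.

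**Figure D1:**
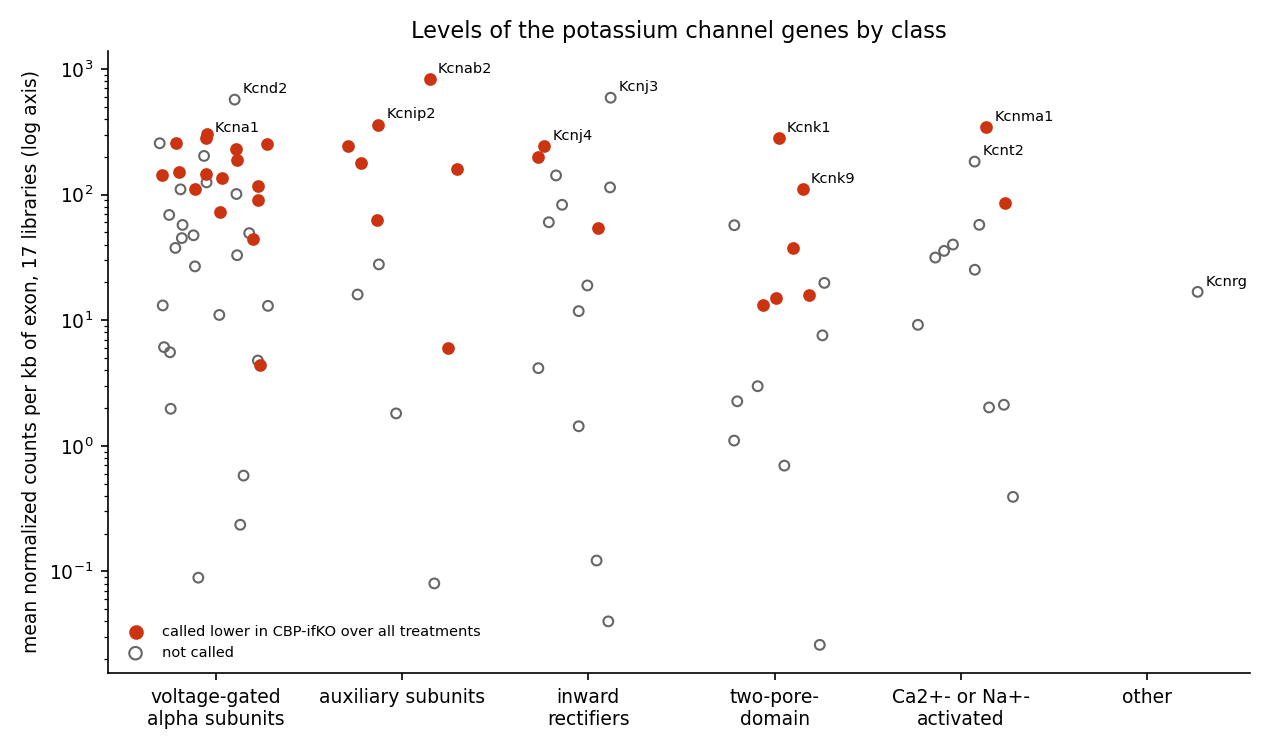
Mean normalized counts per kb of exon over 17 libraries, on a log axis, for each of the 92 potassium channel genes by class. Filled points are the 34 members called lower in CBP-ifKO over all treatments, and up to 2 of the highest members of each class are named, Kcnab2 (831) and Kcnj3 (590.0) being the highest of all.

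The first comparison asks what loss of CBP does to these genes whatever the treatment. Over all treatments 34 of the 92 potassium channel genes were lower in CBP-ifKOs than in controls and none was higher. They covered every class but Kcnrg, and among called members whose mean reached 20 normalized counts the largest drops were those of the inward rectifiers Kcnj2 and Kcnj4 and of Kcnip3, an auxiliary subunit. Of all genes tested 11.5% were called lower and 7.76% higher. The call was an adjusted p under 0.05 in the Wald test of DESeq2 with treatment as a term. A total of 76 members had an adjusted p, of which 44.7% were called lower. Among the 61 members whose mean reached 50 normalized counts, 31 were called lower, or 50.8%, against 15.0% of all genes at that level. The median log2 fold change of these 61 members was -0.21, with 53 of them below 0, while the median over all genes at that level was 0.002. The members together took 0.538 to 0.572% of all counts in the control libraries and 0.464 to 0.532% in the CBP-ifKO libraries, without overlap.

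Most drops were moderate. Of the 34 members 7 had a log2 fold change below -0.5, 13 lay between -0.5 and -0.3, and 14 were smaller. All 34 were below 0 within each of the 3 treatments, but they were selected on these same libraries, so the signs are no separate support. In 11 members, all with a mean of 50 or more, the CBP-ifKO libraries were without exception below the control libraries, and at that level the same held for 2.87% of all genes. These 11 were Kcnab1, Kcnip3, Kcnma1, Kcnn2, Kcnj2, Kcnj4, Kcnk10, Kcna4, Kcnf1, Kcnq5 and Kcnv1. The reverse order was found in no member at that level and in 1.10% of all genes.

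The lane bears on all of these calls. With the lane as a further term, 32 of the 34 log2 fold changes remained below 0, with a median of -0.366 against -0.328 without it. The median SE rose from 0.059 to 0.183 and 2 calls were left, Kcnj2 (adjusted p = 1.03e-05) and Kcnf1 (adjusted p = 0.037). Kcne4 and Kcnab3 were above 0 and Kcnh4 had no adjusted p. That fit takes the response to PTZ as equal in both genotypes. For Kcnj2 the responses to PTZ45 over Sal differed (CBP-ifKO minus Control -1.30, SE 0.212). Its value with the lane term thus also holds the rise with PTZ45 in controls. Within lane 4, which holds both genotypes but sets CBP-ifKO Sal against Control PTZ45, 33 of the 34 were below 0, all but Kcnab3, with a median of -0.332, and 9 were called lower. Without the 5 libraries that held choroid plexus, all 34 were below 0 with a median of -0.304, and 22 of them were called. The 34 were selected on libraries that these refits use again, so their signs and medians are no separate support. The shares of all genes called in these refits are not given here. Markers of CA1 pyramidal cells moved with the genotype as well. Of 6 such markers, 5 were called lower (Wfs1, Mpped1, Fibcd1, Man1a and Pou3f1), and their summed level was 5563 to 6293 normalized counts in control libraries and 3938 to 4932 in CBP-ifKO libraries. No marker of the list had a mean under 5 normalized counts. Of 6 dentate granule cell markers 3 were lower and 1 higher, and their summed level overlapped, with 4190 to 5121 in controls and 4470 to 4952 in CBP-ifKOs. Of the markers of cells outside the reach of the Camk2a promoter, 3 of 6 were lower for astrocytes (Gja1, Aldoc and Slc1a3), with summed levels of 20170 to 21940 in controls and 17270 to 21860 in CBP-ifKOs, and 2 of 7 for interneurons (Gad1 and Sst), with 6578 to 6930 and 5898 to 6608. Of the other lists, 1 marker was lower for CA3 pyramidal cells (Grik4), endothelial and mural cells (Rgs5), thalamus (Plekhg1) and striatum (Drd1), where Rgs9 was higher, and none was called for oligodendrocytes, microglia or choroid plexus. The part of these cell populations in the drop of the channel genes was not tested, and in bulk tissue fewer cells of a type and less RNA per cell cannot be told apart.

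**Figure D2:**
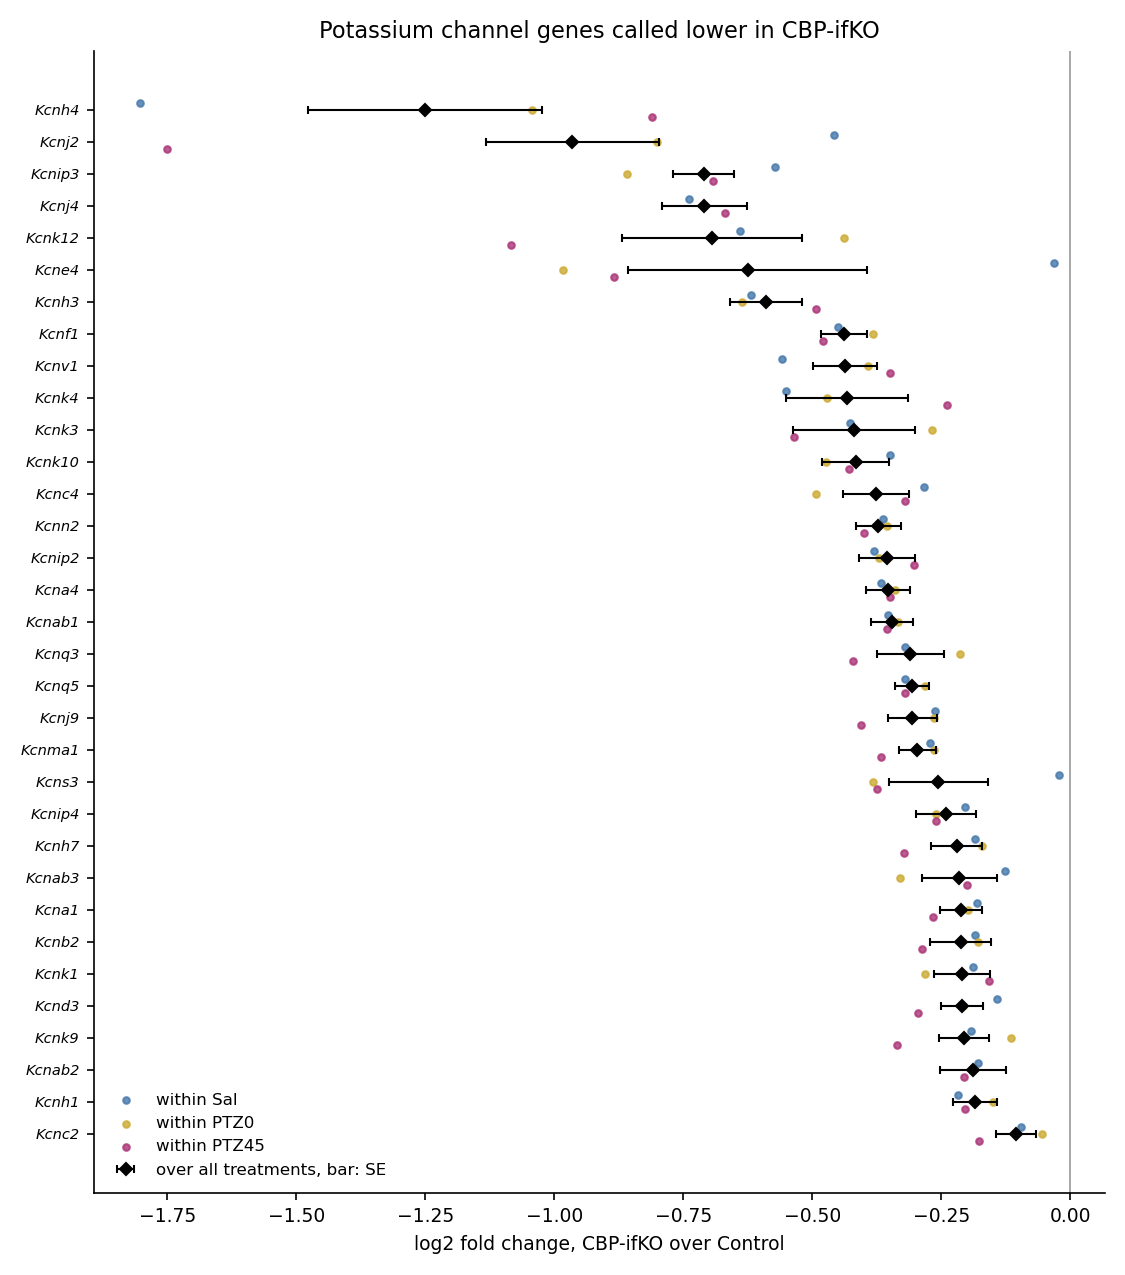
Log2 fold change of CBP-ifKO over Control for 33 of the 34 members called lower over all treatments, with diamonds and bars for the estimate over all treatments and its SE and coloured points for the estimates within Sal, PTZ0 and PTZ45. All points lie below 0, from -0.105 in Kcnc2 to -1.25 in Kcnh4 over all treatments. The members were selected as lower on the same libraries.

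Kcnj2 encodes Kir2.1, a strong inward rectifier that holds the membrane near the potassium equilibrium potential. It lies on chromosome 11 at chr11:111066164-111076821 (GRCm38, plus strand). In control libraries it had 273, 286 and 265 normalized counts in Sal, 306, 363 and 312 in PTZ0, and 789.7 and 639.9 in PTZ45. In CBP-ifKO libraries it had 169, 208 and 227 in Sal, 157, 203 and 199 in PTZ0, and 245, 193 and 199 in PTZ45. Control PTZ45 stood far above every other group, and the highest CBP-ifKO library (245) was below the lowest control library (265). With the treatments combined its log2 fold change came to -0.97 (SE 0.168, adjusted p = 3.44e-07), and it ran from -0.85 to -1.41 over 24 alternatives, in all of which the call held. Within lane 4 it was -1.84 (SE 0.171, adjusted p = 2.50e-24), but there CBP-ifKO Sal stood against Control PTZ45. That value holds the rise of Kcnj2 with PTZ45 in controls besides the genotype, and is no estimate of genotype alone. The alternative with the lane term has a like limit, as it takes the response to PTZ as equal in both genotypes. Within treatments the genotype log2 fold change of Kcnj2 was -0.46 in Sal (SE 0.154, adjusted p = 0.106), -0.80 in PTZ0 (SE 0.141, adjusted p = 1.74e-06) and -1.75 in PTZ45 (SE 0.158, adjusted p = 7.74e-26). The difference in Sal did not pass the test although the libraries did not overlap.

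Kcnj4 encodes Kir2.3, of the same subfamily, and lies at chr15:79483714-79505241 (minus strand). Its control libraries had 739, 823 and 656 normalized counts in Sal, 689, 635 and 643 in PTZ0, and 548 and 556 in PTZ45. Its CBP-ifKO libraries had 324, 496 and 521 in Sal, 404, 433 and 367 in PTZ0, and 367, 292 and 382 in PTZ45. The genotypes did not overlap, the closest libraries being Control PTZ45 replicate 1 (548) and CBP-ifKO Sal replicate 3 (521). The mean in CBP-ifKOs was 398 ± 75.0 (SD, n = 9) against 661 ± 90.8 (SD, n = 8) in controls, a log2 difference of -0.71 (SE 0.082, adjusted p = 6.90e-16). It was called in each treatment, with -0.74 in Sal, -0.71 in PTZ0 and -0.67 in PTZ45. With the lane term it was -0.70 with an adjusted p of 0.266, and within lane 4 it was -0.32 with an adjusted p of 0.483.

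Kcnip3 encodes KChIP3, a calcium-binding protein that associates with Kcnd channels and is also known as the transcriptional repressor DREAM. It lies at chr2:127456498-127522094 (minus strand). Control libraries had 819, 742 and 725 normalized counts in Sal, 848, 849 and 790.3 in PTZ0, and 822 and 727 in PTZ45. CBP-ifKO libraries had 455, 558 and 541 in Sal, 465, 447 and 459 in PTZ0, and 495, 423 and 519 in PTZ45. The highest CBP-ifKO library (558) was thus below the lowest control library (725), and mean levels in CBP-ifKOs were 61.3% of control. Its log2 fold change came to -0.71 (SE 0.059, adjusted p = 2.84e-30), and -0.57, -0.86 and -0.69 within Sal, PTZ0 and PTZ45, called in each. With the lane term it was -0.41 with an adjusted p of 0.531, and within lane 4 it was -0.59 (SE 0.138, adjusted p = 0.00151).

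Promoter sequences were taken from RefSeq (GRCm38.p6) as windows from 250 bases before to 50 bases after each gene start, and 67 of the 92 members had at least 1, with 91 windows in all. The 250 bases before the first listed start are given for these 3 genes because they showed the largest drops under the naming rule. Capitals mark matches to the motifs searched, and every other base is in lower case.
Kcnj2, chr11:111065914-111066163, plus strand: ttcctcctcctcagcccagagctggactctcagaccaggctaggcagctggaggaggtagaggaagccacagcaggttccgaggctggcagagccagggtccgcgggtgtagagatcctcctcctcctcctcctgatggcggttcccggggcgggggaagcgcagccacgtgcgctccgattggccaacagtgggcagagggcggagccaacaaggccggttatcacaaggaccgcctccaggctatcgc
Kcnip3, chr2:127522095-127522344, minus strand: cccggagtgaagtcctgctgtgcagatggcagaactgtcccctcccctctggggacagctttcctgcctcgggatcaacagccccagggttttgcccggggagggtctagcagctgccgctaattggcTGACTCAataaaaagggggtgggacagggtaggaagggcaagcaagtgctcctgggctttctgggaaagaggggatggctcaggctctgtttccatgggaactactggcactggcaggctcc
Kcnj4, chr15:79505242-79505491, minus strand: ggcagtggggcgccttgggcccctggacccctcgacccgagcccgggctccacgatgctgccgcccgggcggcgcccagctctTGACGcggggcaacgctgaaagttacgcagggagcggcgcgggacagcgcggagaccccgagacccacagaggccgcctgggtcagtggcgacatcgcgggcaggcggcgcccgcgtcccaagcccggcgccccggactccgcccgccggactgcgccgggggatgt

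The motifs were the full cAMP response element TGACGTCA, which CREB, a partner of CBP, is known to bind, its shorter form TGACG, which the full element contains, the AP-1 motif TGANTCA and the CArG box, all on both strands. The Kcnip3 sequence held an AP-1 match 122 to 116 bases before the start, and the Kcnj4 sequence a TGACG match 167 to 163 bases before the start. The Kcnj2 sequence held none of the letters searched. Over the 91 windows of members, none held the full element or the CArG box, which 1.79% and 1.63% of all 32851 windows did. TGACG was in 17.6% of the members' windows and 20.8% of all windows, and the AP-1 motif in 4.40% and 7.81%. These matches are descriptions of the sequence only.

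**Figure D3:**
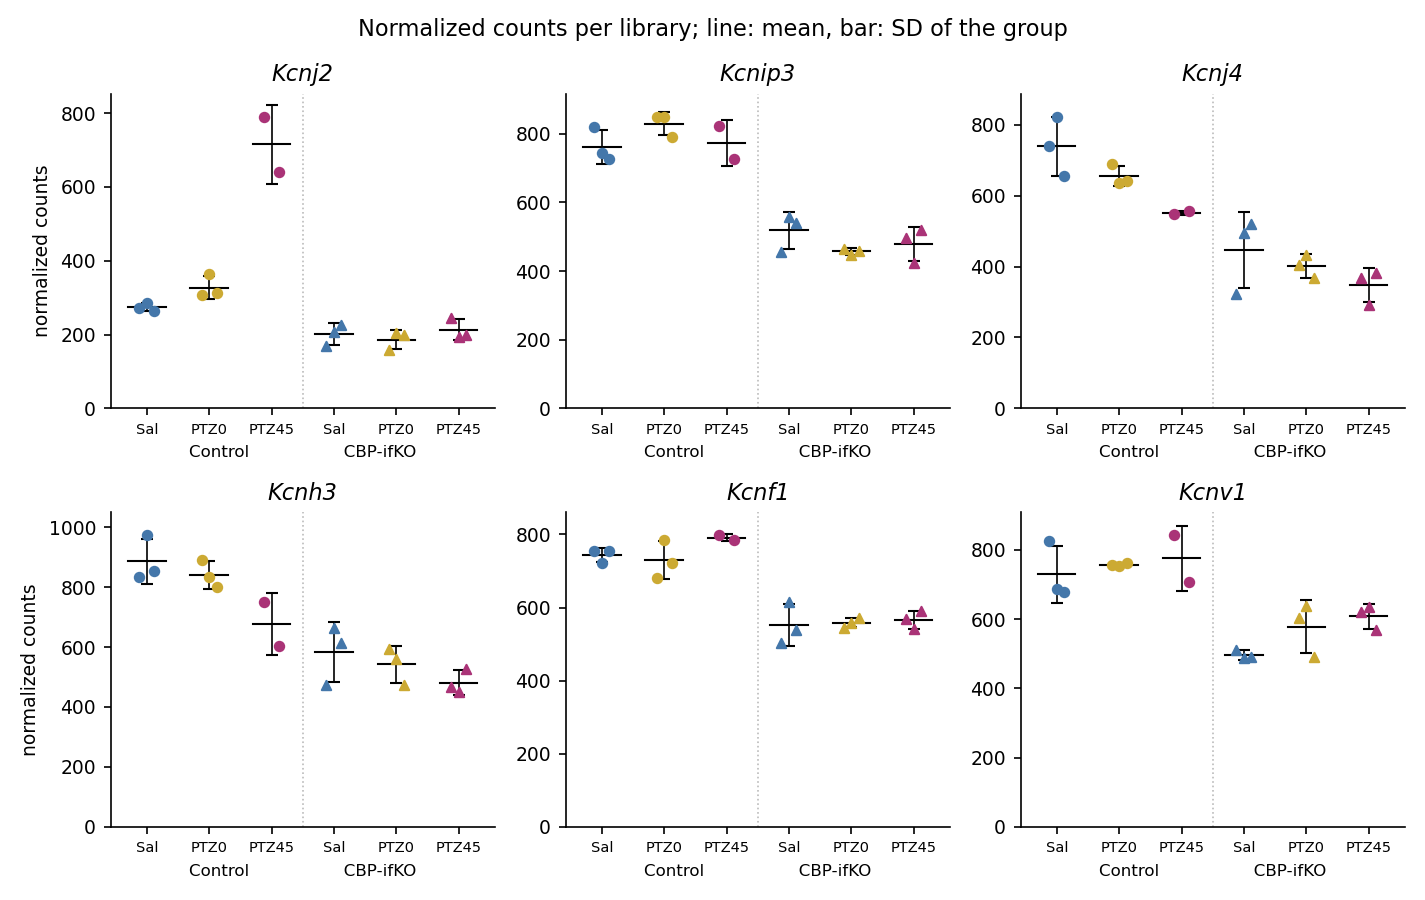
Normalized counts of Kcnj2, Kcnip3, Kcnj4, Kcnh3, Kcnf1 and Kcnv1 in each library, by genotype and treatment, with the mean and SD of each group. Kcnj2 stands out in Control PTZ45 (639.9 and 789.7), while Kcnip3, Kcnj4, Kcnf1 and Kcnv1 show no overlap between the genotypes and Kcnh3 overlaps.

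Among the 40 voltage-gated alpha subunits, 36 of which had an adjusted p, 16 were lower and none was higher. Of all genes tested 11.5% were lower and 7.76% higher. Kcnh3, of the ether-a-go-go family and expressed mainly in forebrain, had 604 to 973 normalized counts in controls (median 833) and 449 to 664 in CBP-ifKOs (median 527). The genotypes overlapped, and the log2 difference was -0.59 (SE 0.070, adjusted p = 6.50e-15). Kcnf1 and Kcnv1 encode electrically silent subunits, which form no channel alone and modify the Kcnb channels. Kcnf1 had 681 to 798 in controls (median 755) and 503 to 614 in CBP-ifKOs (median 559), a log2 difference of -0.44 (SE 0.045, adjusted p = 1.13e-19). Kcnv1 had 677 to 842 in controls (median 753) and 488 to 639 in CBP-ifKOs (median 567), with -0.44 (SE 0.062, adjusted p = 1.08e-10). Both were separated in all libraries. Kcnc4, a fast-activating channel of axons and terminals, and Kcna4, an A-type channel of axons, were lower by log2 fold changes of -0.38 (SE 0.064) and -0.35 (SE 0.042).

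Related members are set beside these, and those outside the naming rule were chosen after their values were seen. Of the Kcnq genes of the M-current, which restrains repetitive firing, Kcnq5 (-0.31, SE 0.033) and Kcnq3 (-0.31, SE 0.065) were lower. Of the Kcna genes, Kcna1 was lower besides Kcna4 (-0.21, SE 0.041), while Kcna2 (-0.12), Kcna3 (-0.20), Kcna5 (-0.47) and Kcna6 (-0.06) did not pass, with adjusted p values of 0.0571, 0.146, 0.164 and 0.316. Of the Kcnd genes only Kcnd3 was lower (-0.21, SE 0.041), while the more abundant Kcnd2 had -0.03 (SE 0.043, adjusted p = 0.716). Kcnd1 had 0.38 (SE 0.149, adjusted p = 0.0541), the largest positive value among members whose mean reached 20 normalized counts. With the correction for GC content Kcnd1 was called higher (0.41, adjusted p = 0.035). Kcnb2, a delayed rectifier, was lower (-0.21, SE 0.059). Kcnh4 had the largest drop of all called members, -1.25 (SE 0.227, adjusted p = 1.31e-06), but at a low level, with 15.2 to 32.0 normalized counts in controls and 6.23 to 15.3 in CBP-ifKOs. Other called alpha subunits were Kcnh1, Kcnh7, Kcnc2 and Kcns3, between -0.11 and -0.26. The calls of Kcns3 (adjusted p = 0.0421) and Kcnc2 (adjusted p = 0.0397) were lost in 16 and 15 of 24 alternatives.

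Of the 11 auxiliary subunits, 9 of which had an adjusted p, 7 were lower, beside 11.5% of all genes tested. This was the largest share of any class, in a small class. Kcnip2 had 77.7% of the control level, with a mean of 1168 ± 82.4 (SD, n = 9) against 1504 ± 141 (SD, n = 8) normalized counts and a log2 difference of -0.36 (SE 0.054, adjusted p = 4.47e-09). Kcnab1, a beta subunit that confers fast inactivation on Kcna channels, had 1592 ± 95.4 (SD, n = 9) against 2015 ± 107 (SD, n = 8), with -0.35 (SE 0.041, adjusted p = 9.75e-15) and no overlap. Kcnip4, Kcnab2, Kcnab3 and Kcne4 were also called, with -0.24, -0.19, -0.22 and -0.63. Of these, Kcne4 (mean 15.9 normalized counts) lost the call in 11 of 21 alternatives and Kcnab2, the most abundant member, in 6 of 24.

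Of the 14 inward rectifiers 3 were lower, Kcnj2, Kcnj4 and Kcnj9, beside 11.5% of all genes tested. Kcnj9, a GIRK subunit, had a log2 difference of -0.31 (SE 0.047, adjusted p = 6.46e-09). Its partners Kcnj3 (-0.10, SE 0.044, adjusted p = 0.0870) and Kcnj6 (0.01, SE 0.080, adjusted p = 0.940) did not pass. Kcnj10 and Kcnj16, known from astrocytes, had 0.20 (SE 0.128, adjusted p = 0.304) and -0.01 (SE 0.080, adjusted p = 0.939), and Kcnj11, the pore of the ATP-sensitive channel, had -0.08 (SE 0.063, adjusted p = 0.407).

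Of the 14 K2P genes, which carry the background leak current, 9 had an adjusted p and 6 were lower, beside 11.5% of all genes tested. Kcnk12, a subunit known to be silent or weakly active, had 28.3 to 44.3 normalized counts in controls (median 36.6) and 15.8 to 35.3 in CBP-ifKOs (median 22.9), with -0.69 (SE 0.175, adjusted p = 9.83e-04). Kcnk4 (-0.43, SE 0.118) and Kcnk10 (-0.42, SE 0.065) belong to the mechanosensitive subfamily and Kcnk3 (-0.42, SE 0.119) to the acid-sensitive one. Only Kcnk10 of these 4 was separated in all libraries, with 331 to 422 in controls and 253 to 321 in CBP-ifKOs. Without the libraries that held choroid plexus the calls of Kcnk12 (adjusted p = 0.0679), Kcnk4 (0.0744) and Kcnk3 (0.104) were lost. Kcnk1 (-0.21, SE 0.054) and Kcnk9 (-0.21, SE 0.048) were the other called K2P genes, while the mechanosensitive Kcnk2 had 0.06 (SE 0.085, adjusted p = 0.663).

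Of the 12 genes of calcium- or sodium-activated channels 2 were lower, a share near the 11.5% of all genes tested, so that the count says nothing particular of the class. Kcnn2, the small-conductance channel of the afterhyperpolarization in pyramidal cells, had 560 ± 31.1 (SD, n = 9) against 722 ± 31.4 (SD, n = 8) normalized counts, with -0.37 (SE 0.044, adjusted p = 8.63e-15). Kcnma1 had 5275 ± 293 (SD, n = 9) against 6438 ± 370 (SD, n = 8), with -0.30 (SE 0.035, adjusted p = 6.11e-15). Both were separated in all libraries. The related Kcnn1 (-0.16, adjusted p = 0.113) and Kcnn3 (-0.09, adjusted p = 0.281), the BK beta subunit Kcnmb4 (-0.21, adjusted p = 0.0728) and the sodium-activated Kcnt1 (-0.09, adjusted p = 0.364) and Kcnt2 (0.03, adjusted p = 0.756) were not called. Kcnrg had 0.11 (SE 0.163, adjusted p = 0.711).

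Other genes of potassium channel complexes, whose symbols do not start with Kcn, were taken as a list of 28. Of these 11 were lower and none was higher over all treatments, and 26 had an adjusted p, beside 11.5% of all genes tested called lower and 7.76% higher. The largest drops were those of Calm3 (-0.34, SE 0.064), of Dpp10 (-0.31, SE 0.073), which binds Kcnd channels, of Calm2 (-0.27, SE 0.055), of Dlg4 (-0.27, SE 0.046), which clusters Kcna channels, and of Lingo1 (-0.25, SE 0.053). Calm2 and Calm3 encode calmodulin, the calcium sensor of the Kcnn and Kcnq channels. The 25 of these genes whose mean reached 50 normalized counts had a median log2 fold change of -0.113, beside 0.002 for all genes at that level.

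The genotypes were then compared within each treatment, in libraries that the 3 comparisons do not share. In Sal 11 members were lower, in PTZ0 17 and in PTZ45 13, and none was higher in any treatment. Of all genes tested, 1.77%, 5.25% and 2.82% were lower and 0.267%, 1.43% and 0.250% higher. The median log2 fold change of members whose mean reached 50 normalized counts was -0.191 in Sal, -0.171 in PTZ0 and -0.249 in PTZ45. A total of 9 members were called in all 3 treatments, Kcnq5, Kcna4, Kcnip3, Kcnab1, Kcnma1, Kcnf1, Kcnj4, Kcnh3 and Kcnn2, which 1.13% of the genes tested in all 3 were. A further 4 members of the 34 were called in 2 treatments, 6 in 1 and 15 in none. Kcnip3 led in PTZ0 (-0.86, SE 0.089, adjusted p = 9.77e-19), Kcnj4 in Sal (-0.74, SE 0.153, adjusted p = 2.61e-04) and Kcnj2 in PTZ45. Kcnh7 and Kcnq3 were called in PTZ45 alone, and Kcnc4, Kcnk1, Kcnk10 and Kcnd3 in PTZ0 alone. The interaction of genotype and PTZ45 against Sal was not called for Kcnh7 (-0.15, SE 0.131) or Kcnq3 (-0.11, SE 0.159), and the difference between PTZ0 and the other treatments was not tested. The call of Kcnd3 in PTZ0 was lost in 12 of 13 alternatives.

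Over the 61 members whose mean reached 50 normalized counts, the genotype log2 fold changes in Sal and in PTZ0 had a Pearson correlation of 0.87 across genes. The comparisons share no library, and each comparison crosses lanes, from lane 3 to lane 4 in Sal and from lane 3 to lane 5 in PTZ0. Kcnd1 was at the upper end in both, with 0.53 and 0.57. The counts within treatments depended on single libraries. In Sal 4 members were called without Control Sal replicate 3, 5 without CBP-ifKO Sal replicate 1 and 6 without Control Sal replicate 2. In PTZ0 10 were called without Control PTZ0 replicate 2, and 11 without Control PTZ0 replicate 3 and also without CBP-ifKO PTZ0 replicate 3. In PTZ45 2 were called without Control PTZ45 replicate 1, 7 without Control PTZ45 replicate 2, 5 without CBP-ifKO PTZ45 replicate 2 and 8 without CBP-ifKO PTZ45 replicate 1. Without the libraries that held choroid plexus, which leaves 2 libraries a group, 1, 4 and 5 members were called in Sal, PTZ0 and PTZ45.

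**Figure D4:**
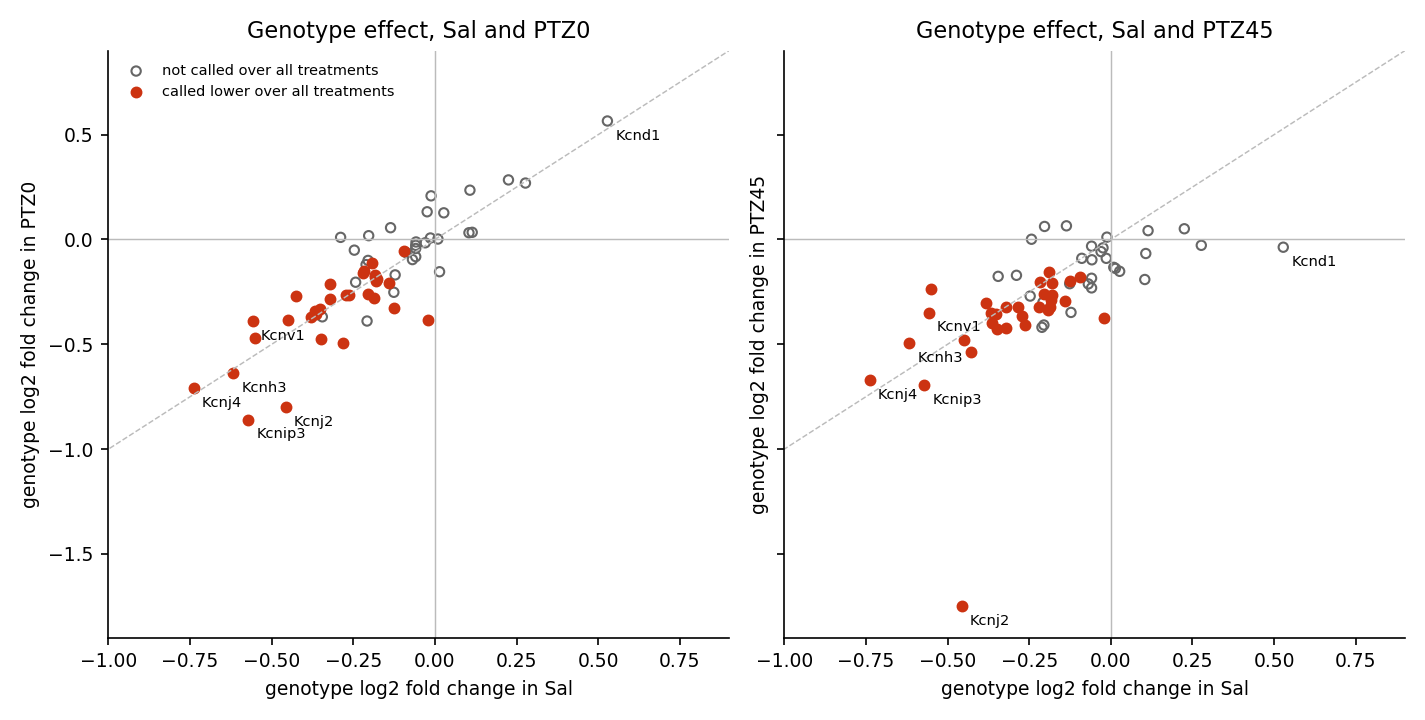
Genotype log2 fold change (CBP-ifKO over Control) in PTZ0 (left) and in PTZ45 (right) against that in Sal, for the 61 members whose mean reached 50 normalized counts, with the dashed line of equal values. Filled points are members called lower over all treatments, most of which lie near the line, and Kcnj2 lies far below it in PTZ45 (-1.75 against -0.46 in Sal).

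The response to PTZ was compared within each genotype. In controls Kcnj2 rose with PTZ45 and was the only member called against Sal, where 0.939% of all genes tested were higher and 0.236% lower. Its mean was 715 ± 106 (SD, n = 2) normalized counts in Control PTZ45 and 274 ± 10.5 (SD, n = 3) in Control Sal, a log2 difference of 1.38 (SE 0.137, adjusted p = 2.97e-21). Against PTZ0, with 327 ± 31.2 (SD, n = 3), it was 1.13 (SE 0.131, adjusted p = 2.06e-15). These 2 comparisons share the PTZ45 libraries. The PTZ45 libraries of controls were 2.33 and 2.88 times the mean of Control Sal. The call held in all 12 alternatives of each comparison, and both comparisons set lane 4 against lane 3.

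In CBP-ifKOs Kcnj2 was not called in either comparison. Its log2 fold change was 0.08 against Sal (SE 0.174) and 0.18 against PTZ0 (SE 0.165), the latter within lane 5, both with an adjusted p of 1.0 in the Wald test of DESeq2. The CBP-ifKO PTZ45 libraries were 0.959, 0.991 and 1.22 times the mean of CBP-ifKO Sal, and so all below the Control PTZ45 libraries. The difference between the responses was itself tested. The interaction of genotype and PTZ45 was -1.30 (SE 0.212, adjusted p = 8.19e-07), and Kcnj2 was the only member called, beside 0.329% of all genes tested. The interaction ran from -1.14 to -1.44 over 18 alternatives, in each of which it was called, with an adjusted p of at most 0.00455, reached without Control PTZ45 replicate 1.

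Against Sal no other member passed the test in controls. Kcnj4 came nearest, with -0.42 (SE 0.123, adjusted p = 0.0517) in controls and -0.36 (SE 0.170, adjusted p = 1.0) in CBP-ifKOs. With TMM size factors it was called in controls. The count against Sal was 2 without Control Sal replicate 3 and also without Control PTZ45 replicate 1. Against PTZ0, Kcnj3 was called in controls with 0.25 (SE 0.071, adjusted p = 0.0480), with 2959, 3069 and 3058 normalized counts in Control PTZ0 and 3383 and 3810.0 in Control PTZ45. This call was lost in 11 of 12 alternatives. The comparison against PTZ0 had 1.18% of all genes called higher and 0.0667% lower. Without Control PTZ45 replicate 1 the count against PTZ0 was 7 and not 2.

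In CBP-ifKOs no member was called with PTZ45 by DESeq2 or by edgeR, with 6 members against Sal and 1 against PTZ0 at an unadjusted p under 0.05, or 8 and 4 by edgeR. All genes tested were called in 0.294% and 0.0872% of cases. Kindling followed by saline called no member either, in controls (2 members at an unadjusted p under 0.05 by DESeq2, 7 by edgeR) or in CBP-ifKOs (none by either), where 0.00843% and 0.0112% of all genes were called. Kcnj2 had 0.25 (SE 0.120) between Control PTZ0 and Control Sal and an adjusted p of 1.0 by DESeq2, both groups being in lane 3.

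Over the 61 members whose mean reached 50 normalized counts, the log2 fold changes of PTZ45 over Sal had a Pearson correlation of 0.49 across genes between the genotypes, Kcnj2 included. These values moved with GC content, with correlations of -0.60 in controls and -0.69 in CBP-ifKOs, whereas the genotype log2 fold change over all treatments had -0.03. With the correction for GC content Kcnj2 remained the only member called in controls against Sal.

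**Figure D5:**
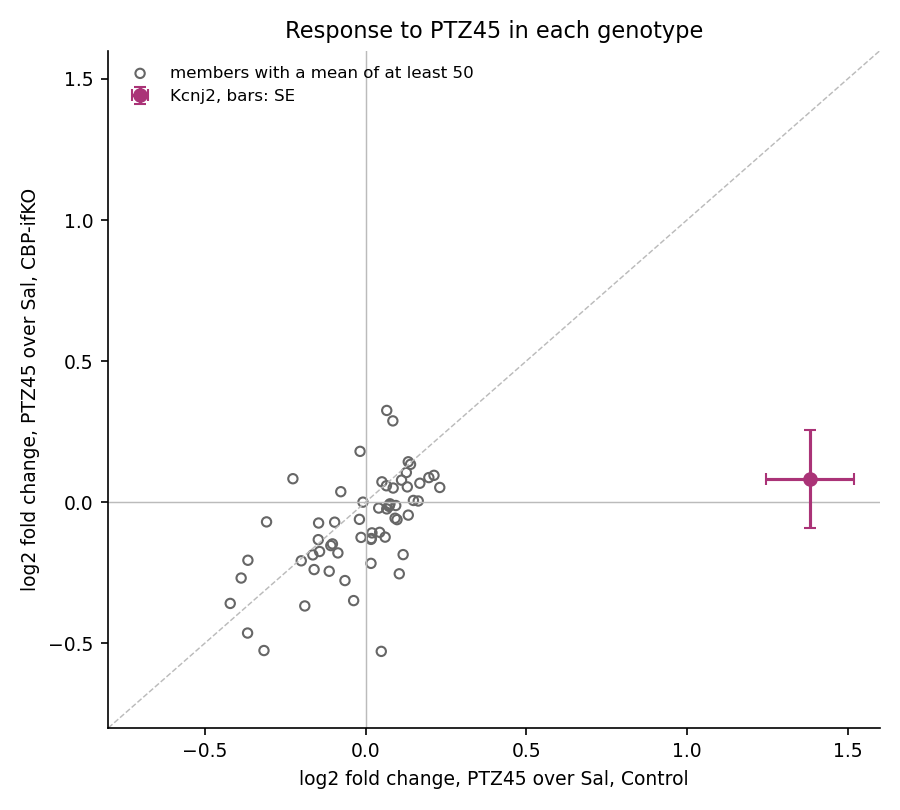
Log2 fold change of PTZ45 over Sal in CBP-ifKOs against that in controls, for the 61 members whose mean reached 50 normalized counts, with the dashed line of equal responses. Kcnj2 (filled, with SE) lies at 1.38 in controls and 0.08 in CBP-ifKOs, apart from the other members, which lie between -0.53 and 0.33 in both.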

How the data were processed

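Total RNA of mouse hippocampus was sequenced as single-end reads. The values deposited by the authors are raw counts per gene, not normalized. Per the submitters' processing notes and the study's methods, reads were checked with FastQC 0.11.8, trimmed with Trim Galore 0.6.4, aligned with STAR 2.6.1 to GRCm38, filtered by mapping quality and counted on Ensembl exons with Rsubread. Use of strand is not given in the sources used here, so reads of overlapping genes, as at Kcnab1, Kcnab2, Kcnh3, Kcnip4, Kcnk3 and Kcnn2, cannot be told apart. Of 18 columns of counts, 1 matched no sample and was not used. Symbols, positions and GC content came from GENCODE M21, which held 99.6% of the identifiers.

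The members and lists were chosen with earlier results of these data known. Genes with at least 1 count were tested with the two-sided Wald test of DESeq2 1.42.0 in R 4.3.3, the test named in the study's methods. A gene was called at a Benjamini-Hochberg adjusted p under 0.05 over all genes, with independent filtering. An empty adjusted p was not counted. Each pair of groups had a fit of its own, the genotype over all treatments one on 17 libraries with treatment as a term, and the interaction on the Sal and PTZ45 libraries. Normalized counts are counts divided by DESeq2 size factors. Per the methods, Sal samples came from individual male mice. For PTZ0 and PTZ45 the sources used here do not say so as plainly, and p-values there measure only the spread between these samples, which may be technical.

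Named are called members whose mean reached 20 normalized counts (at most 15 by size over all treatments, at most 10 per direction elsewhere), the 10 members highest per kb and the highest of each class, at most 5 called partner genes per direction, and Crebbp, Kcne2 and Kcnj13. Others were chosen after their values were seen. A few members counted here are not reported by name.

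Alternatives were edgeR 4.0.16 (quasi-likelihood test), TMM size factors, a low-count filter (10 counts or more in 2 libraries or more), a GC correction (loess, span 0.5, genes with a mean of at least 20), the replicate number as a block, the lane as a term, 1 fit of all 17 libraries, and leaving out each library. The comparison within lane 4 and the omission of the 5 libraries with more than 10000 normalized counts of choroid plexus markers were added after seeing the data. Counts were also simulated with the mean levels and depths of these libraries. Every gene had the same spread, no lane effect was added, and only abundant genes were changed. There DESeq2 recovered 96% of changes of 0.5 and 100% of changes of 1 (log2) over all treatments, and 12% and 65% in the interaction. Of changes of 0.5 it recovered 47% for the genotype in Sal and 33% for PTZ45 against Sal in controls. In each fit 5 to 17 unchanged genes were called.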

Additional observations from a re-analysis of the deposited data

Results flagged for a closer look

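The response of Kcnj2 to PTZ45 over Sal differed between the genotypes, which is why it is given here. The difference, CBP-ifKO minus Control, was -1.30 on the log2 scale (SE 0.212, adjusted p = 8.19e-07, Wald test of DESeq2 across all genes), with higher counts in 2 of 2 Control PTZ45 libraries than in any Control Sal library and overlapping counts in CBP-ifKOs. Each response crosses lanes, from lane 3 to lane 4 in controls and from lane 4 to lane 5 in CBP-ifKOs. Within lane 4, Kcnj2 was lower in CBP-ifKO Sal than in Control PTZ45 by a log2 fold change of -1.84, but these groups differ in treatment as well as genotype.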

How the results depend on the processing

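Kcnj2 kept its direction and its call in every alternative, over all treatments, within PTZ0 and PTZ45, in both control responses and in the interaction. Among these, the lane term takes the response to PTZ as equal in both genotypes, which the interaction of Kcnj2 goes against. Of the 34 members called over all treatments, Kcne4 and Kcnab3 were above 0 with the lane term, neither called, and Kcnab3 also within lane 4. Over all treatments 2 members were called with the lane term and 9 within lane 4, against 34, and 30 to 36 when single libraries were left out. In Sal, 6 were called by edgeR and 4 with the replicate block, against 11. With the block 2 were called in PTZ45, against 13. Same-numbered libraries did not deviate together in every pair of groups, so that the numbers were not taken as pairs. Without the libraries that held choroid plexus the counts were 1 in Sal, 4 in PTZ0 and 5 in PTZ45, and 1 for Control PTZ45 against PTZ0. Leaving out single libraries gave 4 to 13 in Sal, 10 to 19 in PTZ0, 2 to 9 in PTZ45, 1 to 2 for Control PTZ45 against Sal and 1 to 7 against PTZ0. Control PTZ45 against Sal had 2 called with TMM, and against PTZ0 it had 1 by edgeR, TMM, the count filter, the GC correction, the replicate block and 1 fit of all 17 libraries. The cause of these shifts was not tested, beyond the fewer libraries in the fits that leave some out. Where 1 library of Control PTZ45 was left, it was taken to vary like the other group. Members under 20 normalized counts and changes under 0.5 within a treatment are limited by depth and by 2 to 3 libraries a group.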
